A study of Mus musculus with 20 samples.

Results

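The genes described here encode catalytic and regulatory subunits of phosphoinositide 3-kinase (PI3K) and proteins grouped with them as antagonists or regulators. No effect of these proteins on PI3K, that of Homer2 included, was measured here. These genes are 9 of the 39179 in the authors' deposited table: Pik3ca, Pik3cd, Pik3cg, Pik3r1, Pik3r5, Inpp5d, Pik3ip1, Trib2 and Homer2. They were chosen by name, with earlier results of these data known. RNA was sequenced from 20 samples of C57BL/6 mice in 5 groups. The design asked how T cells that lack the Id proteins Id2 and Id3, which bind E proteins and keep them off DNA, differ from control T cells. Control CD4SP cells (5 samples) were CD4+TCRb+CD8– thymocytes, given as wild type in the labels but as Id3+/- or littermate controls in the study's text. The Id2-/-Id3-/- CD4SP cells (3 samples) carried floxed alleles of both genes, Id2 fl/fl and Id3 fl/fl, and IL7R Cre, which is active from an early lymphoid progenitor onwards and so also in lymphocytes other than T cells. A further 3 CD4SP samples were labelled Id3-/-, a germline deletion, and all thymic CD4SP samples came from mice 8 wk of age. The 6 lymphomas were Id2-/-Id3-/- TCRb+ cells sorted from diseased, aged mice, 4 from lymph node, 1 from spleen and 1 from thymus. Of these 4 were CD4+ and 2 were CD8+, and the labels do not name the Cre driver of each tumor. TFH cells (3 samples) were CD4+TCRb+CD44highCXCR5+ cells from wild-type spleens after immunization with sheep red blood cells.

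PI3K is the lipid kinase that turns PIP2 in the plasma membrane into PIP3, which recruits AKT and the TEC family kinases. In T cells it is engaged by the T cell receptor, CD28, ICOS and cytokine receptors, and AKT in turn keeps FOXO transcription factors out of the nucleus. A class IA enzyme pairs p110alpha, p110beta or p110delta with a p85-type regulatory subunit. The class IB enzyme pairs p110gamma with p101 or p84 and responds to G protein-coupled receptors.

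All values are the authors' averages of DESeq-normalized counts, 1 per gene and group. No value per sample was available, so no average carries an error, no difference was tested, and 1 deviating sample within a group would not be seen. Ratios are log2 values of the averages with 1 normalized count added to each, and a gene is called higher or lower where this ratio passes 2-fold. The 4 ratios to control share 1 control average, so they are not independent of each other. In bulk samples, fewer cells of a type and less RNA per cell cannot be told apart. Gene positions are those of mm10. All 9 genes had a largest group average of at least 10 normalized counts, as did 15289 of the 37607 genes with a symbol.

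Id2 and Id3 served as a check of the genotypes. The Id2 average of control, 2293 normalized counts, compared with 6.82 after deletion in CD4SP cells and 30.5 in lymphomas. Id3 averaged 1991 in control, 880 in Id2-/-Id3-/- CD4SP cells and 857 in the lymphomas, or 44.2% and 43.0% of control, so unlike Id2 these values do not by themselves show a deletion of Id3. The libraries labelled Id3-/- had an Id3 average of 2650, above control, which goes against their label. A whole-gene value cannot show whether a targeted allele still yields reads, and if the controls were Id3+/- their Id3 average is that of heterozygous cells. Other genes did set these libraries apart from control, with Eomes at 37.2 normalized counts in control and 4727 here. They are called the libraries labelled Id3-/- throughout. All 10 genes of the alphabeta T cell marker list were measured, with summed averages between 73261 in the lymphomas and 108138 in TFH cells. Cd4, on which the CD4SP cells were sorted, was itself lower in Id2-/-Id3-/- CD4SP cells, at 6565 normalized counts against 15039 in control, and Cd4, Cd5 and Trbc1 were lower in the lymphomas. Of the 10 B cell markers in the table, 2 were higher than control in Id2-/-Id3-/- CD4SP cells and in the libraries labelled Id3-/- (Ighm and Igkc in both), 4 in the lymphomas and 9 in TFH cells. Ebf1 was lower in the lymphomas and in the libraries labelled Id3-/-. Their summed averages ran from 1314 in control to 14551 in TFH cells, most of it Ighm, and none was at 0. Of 8 TFH markers, 7 were higher than control in TFH cells, 6 in each Id2-/-Id3-/- group and 4 in the libraries labelled Id3-/-. The summed myeloid markers ran from 147 in control to 1914 in TFH cells, where Cebpa made up 1716. In the lymphomas the summed granulocyte, basophil and mast cell markers reached 682, against 13.2 in control. The 3 erythroid markers with a sufficient average were higher in the lymphomas and in the libraries labelled Id3-/-. Of 6 regulatory T cell markers, 3 were lower and 1 higher in the lymphomas. Foxp3 averaged 591 in control, 280 in Id2-/-Id3-/- CD4SP cells and 14.6 in the lymphomas. In the same order Cd8a averaged 128, 19.2 and 1388, and Cd8b1 588, 212 and 461. The part of such cells, and of the lower Cd4, in the values below was not tested.

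In Id2-/-Id3-/- CD4SP cells Homer2 was higher than control and Trib2, Pik3r5, Pik3ip1 and Pik3r1 were lower, each by more than 2-fold. The 3 catalytic subunit genes and Inpp5d stayed within 2-fold. Thus 1 of 9 genes was higher and 4 were lower, where 14.1% and 10.0% of the 15289 genes were, and 24.1% passed in either direction. The median log2 ratio was -0.72 over the 9 genes and 0.02 over all 15289. The same 5 genes passed in the lymphomas, again 1 higher and 4 lower, where 18.2% and 17.0% of all genes were and 35.2% in either direction. The median log2 ratio of the 9 genes there was -0.998, beside 0.03 over all genes. Because the 9 were chosen with earlier results of these data known, these shares and medians are no test of them as a set.

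**Figure D1:**
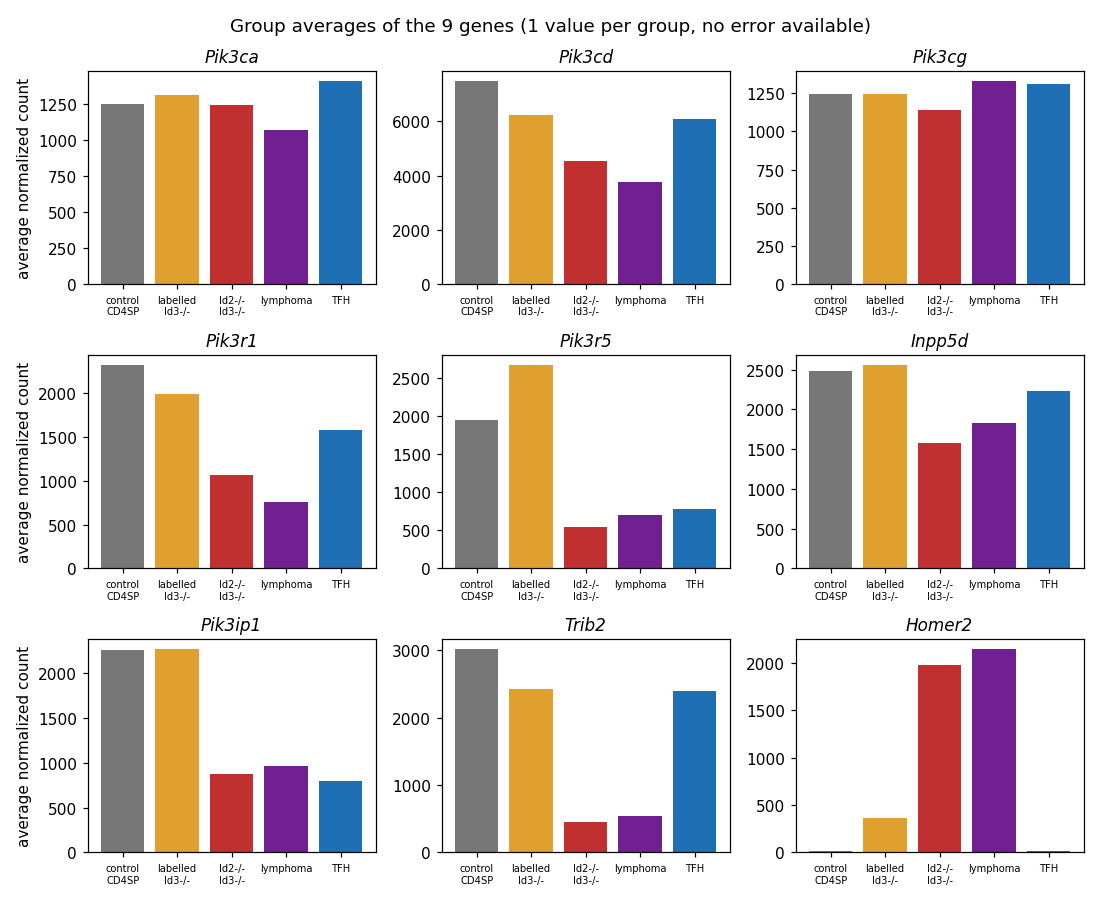
Group averages of the 9 genes in normalized counts (linear axes from 0, a separate scale per gene), 1 bar per group and no error bars because each group has 1 average. Homer2 stands near 0 in control CD4SP and TFH cells, while Trib2, Pik3r5 and Pik3ip1 are each low in Id2-/-Id3-/- CD4SP cells and lymphomas. Pik3r5 and Pik3ip1 are low in TFH cells too.

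Pik3cd (chromosome 4, 149649168 to 149702571, minus strand) encodes p110delta, the main class IA catalytic subunit of lymphocytes. Its average was 7479 normalized counts in control CD4SP cells, 6233 in the libraries labelled Id3-/-, 6085 in TFH cells, 4546 in Id2-/-Id3-/- CD4SP cells and 3745 in the lymphomas. The 2 Id2-/-Id3-/- groups thus held the lowest values. The log2 ratio to control was -0.72 in Id2-/-Id3-/- CD4SP cells and -0.998 in the lymphomas. The latter ratio, a 1.997-fold difference, fell just short of the 2-fold threshold. When the averages were scaled to the same sum it became -1.20, and scaled by the median ratio to control it became -1.02. Both settings therefore place Pik3cd among the lower genes of the lymphomas.

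Pik3ca (chromosome 3, 32397671 to 32468486, plus strand), which encodes the broadly expressed p110alpha, varied less than Pik3cd. It averaged 1252 normalized counts in control, 1310 in the libraries labelled Id3-/-, 1240 in Id2-/-Id3-/- CD4SP cells, 1071 in the lymphomas and 1408 in TFH cells. Pik3cg (chromosome 12, 32173473 to 32208659, minus strand) encodes p110gamma, the class IB catalytic subunit. Its averages were 1249 in control, 1243 in the libraries labelled Id3-/-, 1140 in Id2-/-Id3-/- CD4SP cells, 1331 in the lymphomas and 1313 in TFH cells. The highest average was 1.32 times the lowest for Pik3ca and 1.17 times for Pik3cg, and neither passed 2-fold in any comparison. Whether the small steps between neighboring groups exceed the spread of the samples cannot be told from averages.

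Levels per kilobase of annotated exon allow different genes to be compared only roughly. The union of exons also counts exons that the cells may not use. On this scale Pik3cd led the class I catalytic genes in every group. It reached 1195 normalized counts per kb in control, against 148 for Pik3cg, 138 for Pik3ca and 15.2 for Pik3cb, which encodes p110beta. Pik3cd made up 79.9% of the summed catalytic level in control, 76.2% in the libraries labelled Id3-/-, 74.8% in TFH cells, 71.2% in Id2-/-Id3-/- CD4SP cells and 68.4% in the lymphomas. The Pik3cg share went the other way, from 9.91% in control to 13.3% in Id2-/-Id3-/- CD4SP cells and 18.0% in the lymphomas. The summed catalytic level itself was 1496 per kb in control, 1021 in Id2-/-Id3-/- CD4SP cells and 875 in the lymphomas. Pik3cb averaged 110 normalized counts in control, 162 in Id2-/-Id3-/- CD4SP cells and 5.56 in the lymphomas, a log2 ratio of -4.08 in the last.

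**Figure D2:**
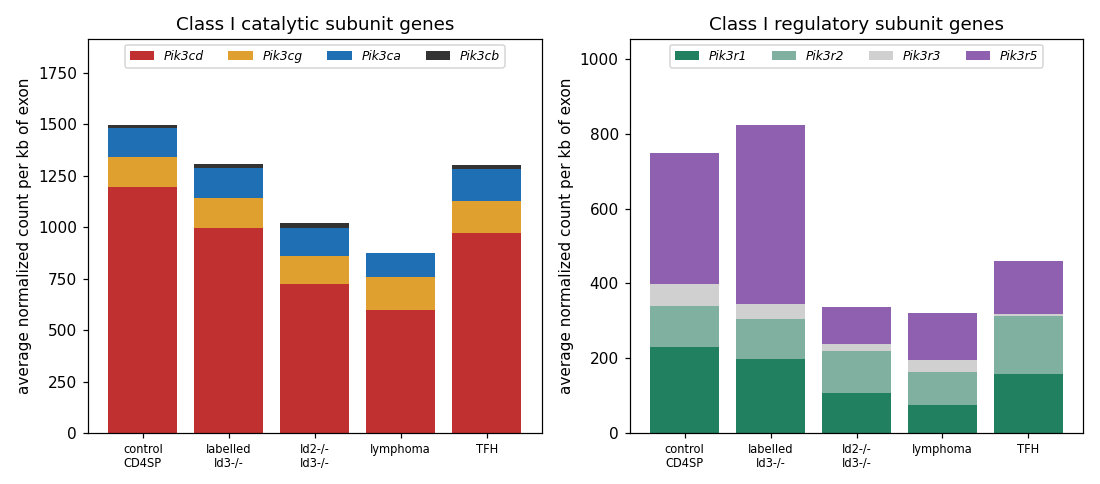
Stacked group averages per kb of annotated exon for the class I catalytic (left) and regulatory (right) subunit genes, 1 bar per group, linear axes from 0. Pik3cd is the largest block on the left in every group, from 1195 per kb in control to 598 in lymphomas, and the Pik3r5 block on the right shrinks from 351 to 97.6 per kb in Id2-/-Id3-/- CD4SP cells.

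Pik3r1 (chromosome 13, 101680563 to 101768217, minus strand) encodes p85alpha and its shorter forms, which stabilize the class IA catalytic subunits and also hold them inactive until a receptor recruits them. It averaged 2321 normalized counts in control, 1987 in the libraries labelled Id3-/-, 1579 in TFH cells, 1069 in Id2-/-Id3-/- CD4SP cells and 763 in the lymphomas. The order of the groups was the same as for Pik3cd. Its log2 ratio to control was -1.12 in Id2-/-Id3-/- CD4SP cells, a 2.17-fold lower level, and -1.60 in the lymphomas, a 3.04-fold lower level. The lymphomas lay a further -0.49 from Id2-/-Id3-/- CD4SP cells, within 2-fold.

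Among the class IA regulatory genes the Pik3r1 share was lower in both Id2-/-Id3-/- groups and in TFH cells than in control. Per kb of exon it held 57.7% of the level of Pik3r1, Pik3r2 and Pik3r3 in control, 44.4% in Id2-/-Id3-/- CD4SP cells and 38.9% in the lymphomas. Pik3r2, which encodes p85beta, held 27.2%, 47.1% and 45.7% in the same order, at averages of 453, 469 and 371 normalized counts. TFH cells showed a like split, with 49.2% for Pik3r1 and 48.7% for Pik3r2. Pik3r3, which encodes p55gamma, averaged 320 in control, 107 in Id2-/-Id3-/- CD4SP cells, 159 in the lymphomas and 34.6 in TFH cells. The summed class IA catalytic level per kb was 3.38 times the regulatory level in control, 3.71 times in Id2-/-Id3-/- CD4SP cells and 3.69 times in the lymphomas.

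Pik3r5 (chromosome 11, 68432121 to 68497849, plus strand) encodes p101, the regulatory partner through which p110gamma responds to G protein beta-gamma subunits. It averaged 1946 normalized counts in control, 2662 in the libraries labelled Id3-/-, 542 in Id2-/-Id3-/- CD4SP cells, 696 in the lymphomas and 779 in TFH cells. The groups fell on either side of a gap, with control and the libraries labelled Id3-/- above it and the other 3 below. The log2 ratios to control were -1.84 in Id2-/-Id3-/- CD4SP cells, -1.48 in the lymphomas and -1.32 in TFH cells. In the libraries labelled Id3-/- the ratio was 0.45, the largest value there after Homer2 among the 9 genes. Pik3cg did not share this pattern. The Pik3cg level per kb was 0.423 times that of Pik3r5 in control and 1.39 times in Id2-/-Id3-/- CD4SP cells. It was 1.26 times in the lymphomas and 1.11 times in TFH cells. Pik3r6, which encodes p84, averaged under 10 normalized counts in every group.

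Inpp5d (chromosome 1, 87620312 to 87720507, plus strand) encodes SHIP1, the 5-phosphatase that converts PIP3 to PI(3,4)P2. Its average was 2486 normalized counts in control, 2557 in the libraries labelled Id3-/-, 2229 in TFH cells, 1835 in the lymphomas and 1573 in Id2-/-Id3-/- CD4SP cells. The Id2-/-Id3-/- groups were lowest, with log2 ratios of -0.66 and -0.44 for the CD4SP cells and the lymphomas, both within 2-fold.

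Pik3ip1 (chromosome 11, 3330401 to 3342971, plus strand) encodes a transmembrane protein that binds the catalytic subunit and inhibits PI3K. It averaged 2257 normalized counts in control and 2269 in the libraries labelled Id3-/-, but 964 in the lymphomas, 878 in Id2-/-Id3-/- CD4SP cells and 795 in TFH cells. As for Pik3r5, the last 3 groups lay together below the first 2. The log2 ratios to control were -1.36 in Id2-/-Id3-/- CD4SP cells, -1.23 in the lymphomas and -1.505 in TFH cells. Pik3ip1 overlaps the opposite-strand gene Gm12592, whose largest average was 87.3. The libraries were strand-specific, but counting by strand is not stated.

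Trib2 (chromosome 12, 15791727 to 15816922, minus strand) encodes a pseudokinase of the tribbles family, which binds AKT and the COP1 ubiquitin ligase. It averaged 3014 normalized counts in control, 2431 in the libraries labelled Id3-/-, 2399 in TFH cells, 534 in the lymphomas and 453 in Id2-/-Id3-/- CD4SP cells. Here TFH cells stood with control and not with the Id2-/-Id3-/- groups, unlike Pik3r5 and Pik3ip1. The log2 ratio of -2.73 in Id2-/-Id3-/- CD4SP cells, a 6.64-fold lower level, was the lowest of the 9 genes and the 169th lowest of 15289 genes. In the lymphomas it was -2.50. The related Trib1 did not follow it: Trib1 averaged 436 in control, 349 in Id2-/-Id3-/- CD4SP cells, 3256 in the lymphomas and 1809 in TFH cells.

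Homer2 (chromosome 7, 81600481 to 81707527, minus strand) encodes a scaffold protein of the Homer family, which binds proline-rich motifs of receptors and signaling proteins and is best known from synapses. It averaged 17.3 normalized counts in control and 14.1 in TFH cells, against 365 in the libraries labelled Id3-/-, 1980 in Id2-/-Id3-/- CD4SP cells and 2143 in the lymphomas. In control 21.3% of the 15289 genes had a lower average, and TFH cells were as low, with the 3 other groups far above. The log2 ratio to control was 6.76 in Id2-/-Id3-/- CD4SP cells, or 108-fold, the 18th highest of 15289 genes. It was 6.87 in the lymphomas, or 117-fold, and 4.32 in the libraries labelled Id3-/-, or 20.0-fold. With a pseudocount of 10 these ratios became 6.19, 6.30 and 3.78. The libraries labelled Id3-/- therefore lay between control and Id2-/-Id3-/- CD4SP cells for Homer2. Like Pik3ip1, Homer2 overlaps an opposite-strand gene, the antisense gene Gm44570. No average was available for Gm44570, and the part of its reads in the Homer2 values was not tested. Per kb of exon Homer2 reached 157 in Id2-/-Id3-/- CD4SP cells, against 136 for Pik3ca and 106 for Pik3r1. Its relatives differed less in Id2-/-Id3-/- CD4SP cells. There Homer1 averaged 382, against 202 in control, and Homer3 averaged 95.4, against 254. Homer3 was at 16.8 in TFH cells. Of the 8 thymic epithelial and stromal markers, Epcam and Col1a1 were also higher in both Id2-/-Id3-/- groups. Epcam averaged 70.7 in control, 593 in Id2-/-Id3-/- CD4SP cells and 3797 in the lymphomas. Psmb11 went the other way, at 13.2 in control, 10.3 in Id2-/-Id3-/- CD4SP cells and 3.67 in the lymphomas, where it was called lower. Of the same markers 5 were under 10 normalized counts in control, as were 5 in Id2-/-Id3-/- CD4SP cells and 6 in the lymphomas, and their part in the Homer2 values was not tested.

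**Figure D3:**
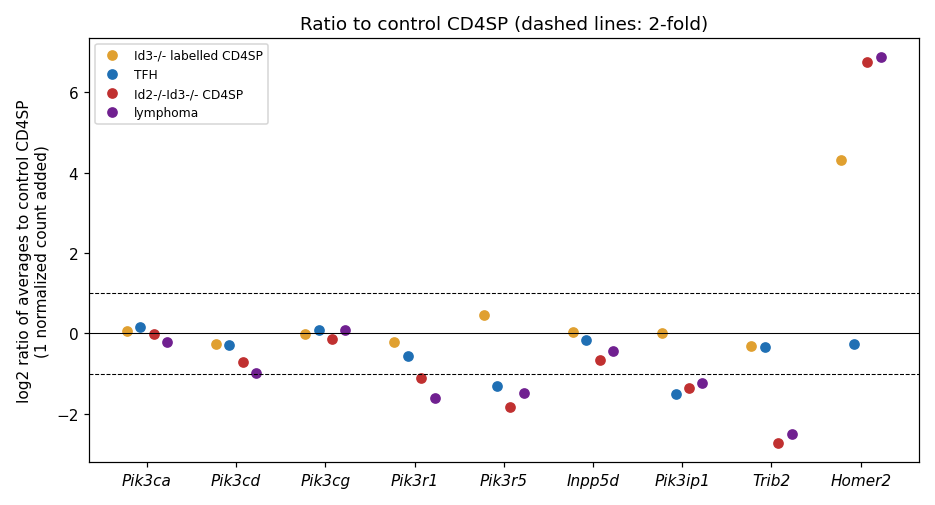
Log2 ratios of the group averages to control CD4SP cells (1 normalized count added) for the 9 genes, 1 point per group, dashed lines at 2-fold. Homer2 lies at 6.76 and 6.87 in the 2 Id2-/-Id3-/- groups and at -0.28 in TFH cells, whereas Pik3r5 and Pik3ip1 lie below the lower line in TFH cells too.

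E proteins bind E boxes, of which CAGCTG and CACCTG are common forms, and FOXO factors bind the sequence GTAAACA. RefSeq gave 14 start sites for the 9 genes, on build GRCm38.p6, and the 250 bases before each were searched on both strands. CAGCTG, a palindrome, was present in 1 of these 14 windows, and in 13.0% of the 32851 windows in the whole table. That window, from an internal Homer2 start, held 3 copies, and 0.119% of all windows held 3 or more. It lies inside the Homer2 gene on chromosome 7, from 81600481 to 81707527 on the minus strand, and overlaps no annotated exon. The search was made after the expression of Homer2 was known, and which start is used cannot be read from a whole-gene average. The cutoff of 3 was taken from this window, which held the most matches of the 14. The share of 0.119% is therefore not the chance of such a find in this search. The window is shown because of these 3 copies, with CAGCTG in capitals, first bases 201, 121 and 59 bases before the start.

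Homer2 internal start, chr7:81692966-81693215, minus strand: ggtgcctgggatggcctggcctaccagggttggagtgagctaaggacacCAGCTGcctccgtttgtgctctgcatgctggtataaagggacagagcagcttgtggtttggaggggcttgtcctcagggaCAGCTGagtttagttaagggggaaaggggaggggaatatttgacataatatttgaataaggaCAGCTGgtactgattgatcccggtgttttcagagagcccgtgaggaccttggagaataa

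The other E box form, CACCTG or its complement CAGGTG, was present in 2 of the 14 windows, both of Pik3cd on chromosome 4, and in 17.2% of all windows. Both lie inside the gene. They are shown because Pik3cd is the leading catalytic gene, with CACCTG in capitals. Neither overlaps an annotated exon. A further internal Pik3cd start lies between them, and its window held neither E box form. The words first and second below number only the windows shown.

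Pik3cd first internal start, chr4:149698709-149698958, minus strand: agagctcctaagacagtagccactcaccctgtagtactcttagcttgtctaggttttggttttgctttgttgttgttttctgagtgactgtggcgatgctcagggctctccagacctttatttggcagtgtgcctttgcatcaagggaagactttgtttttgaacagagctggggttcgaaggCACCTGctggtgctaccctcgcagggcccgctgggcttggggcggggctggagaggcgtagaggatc
Pik3cd second internal start, chr4:149663317-149663566, minus strand: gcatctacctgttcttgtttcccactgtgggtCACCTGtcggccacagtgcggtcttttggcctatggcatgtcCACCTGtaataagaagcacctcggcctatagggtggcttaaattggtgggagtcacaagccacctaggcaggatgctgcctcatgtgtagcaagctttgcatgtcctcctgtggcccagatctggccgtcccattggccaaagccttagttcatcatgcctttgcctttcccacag

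The windows of Trib2, Pik3r5, Pik3ip1 and Pik3r1, the 4 genes that were lower, held neither E box form. GTAAACA or its complement TGTTTAC was present in 1 of the 14 windows, at Pik3cg, and in 3.17% of all windows. A match describes the letters in the window, and no binding was measured in the files used here.

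The libraries labelled Id3-/- differed little from control in the 9 genes. Homer2 was the 1 gene past 2-fold, and 0 were lower, where 5.57% and 4.30% of all genes were and 9.87% in either direction. Trib2 had the lowest ratio, -0.31, and the median was 0.01, beside -0.01 over all genes. In TFH cells 0 genes were higher and 2 were lower, Pik3ip1 and Pik3r5, where 11.8% and 9.58% of all genes were and 21.4% in either direction. Their median log2 ratio was -0.30, beside -0.02 over all genes. The Pik3r1 ratio in TFH cells was -0.56, and that of Pik3cd was -0.30.

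Between lymphomas and Id2-/-Id3-/- CD4SP cells none of the 9 genes passed 2-fold in either direction, by ratio alone and with no test. Of all genes 25.2% did, 11.0% higher and 14.2% lower. The share was 15.0% among the 10647 genes with a largest average of at least 100, to which all 9 belong. The ratios ran from -0.49 for Pik3r1 to 0.36 for Pik3r5, with Homer2 at 0.11 and Trib2 at 0.24. The lymphoma average pools CD4+ and CD8+ tumors of 3 tissues, which cannot be told apart in it.

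**Figure D4:**
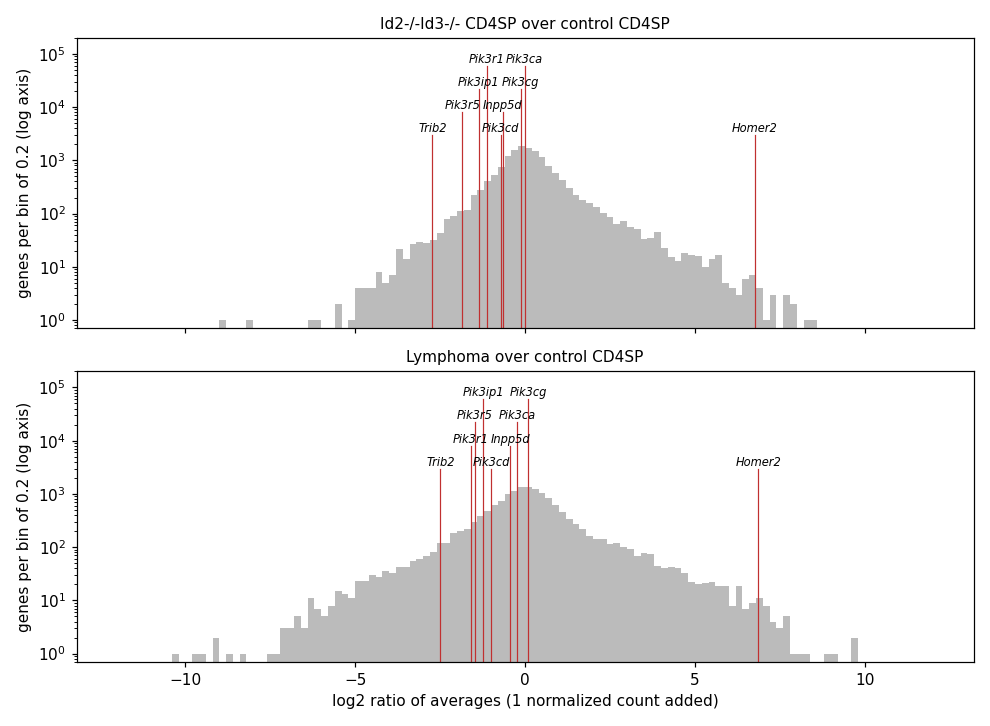
Distribution of the log2 ratios to control over the 15289 genes kept (bars, number of genes per bin of 0.2, log axis) for Id2-/-Id3-/- CD4SP cells (top) and lymphomas (bottom), with red lines at the 9 genes. Homer2 lies in the far upper tail in both panels, and Pik3ca and Pik3cg lie near 0.

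The wider pathway was read from 99 genes in 7 lists that include the 9. Of the 86 others with a sufficient average, 6 were higher and 21 lower in Id2-/-Id3-/- CD4SP cells, or 6.98% and 24.4% of them, beside 14.1% and 10.0% of all genes. In the lymphomas 12 were higher and 20 lower, or 14.0% and 23.3%, beside 18.2% and 17.0% of all genes. In TFH cells 12 and 11, or 14.0% and 12.8%, were near the 11.8% and 9.58% of all genes. In the libraries labelled Id3-/- 5 were higher and 0 lower, or 5.81% and 0.0%, beside 5.57% and 4.30%. Much of the share of lower genes in the 2 Id2-/-Id3-/- groups came from 1 list, that of FOXO genes and genes that depend on them. Of its 18 genes, Pik3ip1 included, 12 were lower in Id2-/-Id3-/- CD4SP cells and 11 in the lymphomas. The shares over the 86 genes therefore do not describe the other lists. The counts of the single lists are to be read against these same shares of all genes. The median log2 ratio of the 86 genes was -0.28 in Id2-/-Id3-/- CD4SP cells and -0.24 in the lymphomas. Since the lists too were chosen with earlier results of these data known, their counts and medians are no test of the pathway.

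Of 13 phosphoinositide phosphatases with a sufficient average, 1 was higher in Id2-/-Id3-/- CD4SP cells and 1 lower. The higher was Inppl1, which encodes SHIP2, at 90.6 normalized counts in control, 374 in Id2-/-Id3-/- CD4SP cells, 299 in the lymphomas and 700 in TFH cells. The lower was Inpp5f, at 512 in control and 197. Among 16 antagonists and regulators, 2 were higher and 3 lower in Id2-/-Id3-/- CD4SP cells, and 6 and 3 in the lymphomas. Besides Homer2, the higher gene was Phlda3, which encodes a PH domain protein that competes with AKT for membrane lipids. Phlda3 averaged 36.9 in control, 323 in Id2-/-Id3-/- CD4SP cells and 81.0 in the lymphomas. Pik3ap1, which encodes the adaptor BCAP, averaged 12.5 in control and 126 in the libraries labelled Id3-/-.

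Receptors and adaptors that recruit PI3K gave 1 higher and 1 lower of 13 in Id2-/-Id3-/- CD4SP cells. The higher was Irs1, an adaptor of the insulin and IL-4 receptors, at 10.2 normalized counts in control, 491 in Id2-/-Id3-/- CD4SP cells and 530 in the lymphomas. The related Irs2 went the other way, at 140, 91.0 and 6.97 in the same order. In the lymphomas 2 of the 13 were higher and 2 lower, Irs2 among the latter. Of 23 genes for PIP3 readers and effectors, 3 were higher and 4 lower in both Id2-/-Id3-/- groups. Tec was higher at 84.2 in control, 285 in Id2-/-Id3-/- CD4SP cells and 569 in the lymphomas, whereas the related kinase gene Txk was lower, at 1213, 484 and 446. Sgk1, a kinase gene related to the AKT genes, reached 9081 in the lymphomas from 548 in control.

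Downstream of AKT, the list of FOXO genes and genes that depend on them in naive T cells gave 12 lower of 18 in Id2-/-Id3-/- CD4SP cells and 11 in the lymphomas, with 0 higher in either. It gave 5 lower in TFH cells and 0 in the libraries labelled Id3-/-. The list holds Pik3ip1 itself and genes that the study named on these samples, so its direction is not independent evidence. Foxo1 averaged 4103 normalized counts in control, 843 in Id2-/-Id3-/- CD4SP cells and 913 in the lymphomas. Bcl2l11, which encodes the death factor BIM, averaged 1622, 244 and 390. Il7r, which encodes the IL-7 receptor alpha chain, averaged 3997, 311 and 3392, so it was lower in Id2-/-Id3-/- CD4SP cells and within 2-fold of control in the lymphomas. The IL7R Cre allele sits in the Il7r gene, and its part in the Il7r value was not tested.

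**Figure D5:**
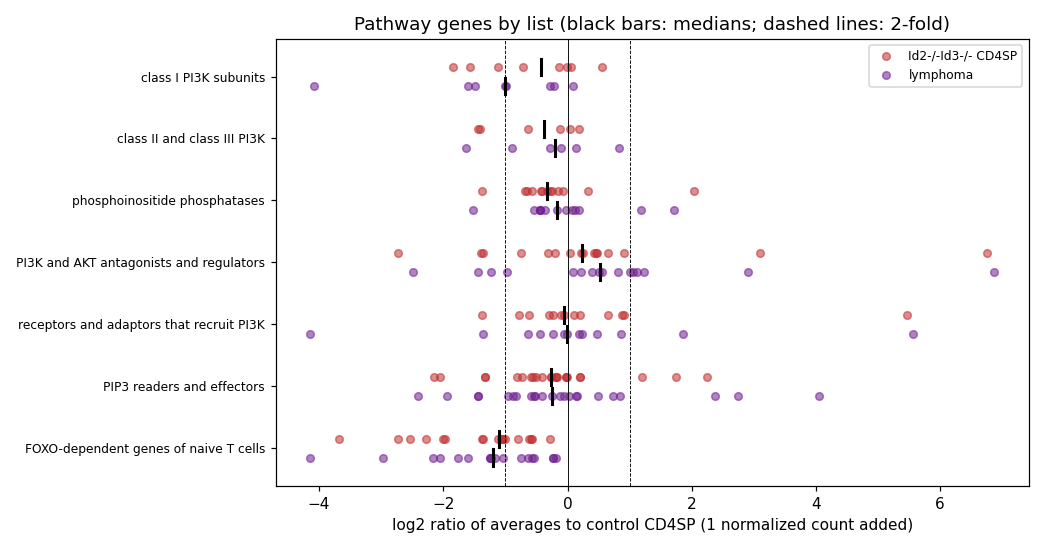
Log2 ratios to control (1 normalized count added) of the genes in 7 pathway lists, 1 point per gene, for Id2-/-Id3-/- CD4SP cells (red) and lymphomas (purple), with black bars at list medians and dashed lines at 2-fold. The FOXO list has its medians at -1.10 and -1.20, left of all other lists in both groups, and Homer2 and Irs1 are among the points farthest to the right.

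The genes nearest in pattern were sought among 10647 genes with a largest average of at least 100, by the Euclidean distance between the 4 log2 ratios to control. The closest to Pik3r1 were Hemk1, Ss18l1 and Gm20605, at distances of 0.166 to 0.194. The closest to Pik3ip1 were Gngt2, the kinase gene Txk and Sbk1, at 0.299 to 0.346, and those closest to Pik3r5 were Tns1, Fam102a and again Txk, at 0.669 to 0.708. The closest to Trib2 were Mturn, Hivep1 and Klf7, at 0.490 to 0.596. For Homer2, Nos1, Parm1 and Gm9747 were nearest, at 1.37 to 1.90. The distance is not scaled to the size of the ratios. Genes with large ratios tend to lie farther apart, so the distances of different genes do not rank how well their patterns match. Nos1, which encodes neuronal nitric oxide synthase, averaged 28.1 normalized counts in control, 264 in the libraries labelled Id3-/-, 3361 in Id2-/-Id3-/- CD4SP cells, 2142 in the lymphomas and 17.4 in TFH cells. Among the 9 genes themselves the closest pair was Pik3ca and Pik3cg, at 0.359, followed by Pik3cd and Inpp5d at 0.655 and by Pik3r5 and Pik3ip1 at 0.728.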

How the data were processed

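Sorted cells of 20 samples were sequenced from strand-specific mRNA libraries. Per the labels and the study's methods, OSA (Array Studio) served for alignment to mm10, RSEM for quantification and DESeq for normalization. Tool versions were not given in these sources. The authors' deposited table holds, per gene, a signal for each of 5 groups, the average of the normalized counts of its samples, and 0 columns of values per sample. Its 12 columns of fold changes, p-values and false discovery rates for 4 comparisons with control were not used. The study states that genes under 10 in all samples were removed, but 23643 genes have all 5 averages under 10 and 5285 are at 0 in all. Depth per sample is unknown, so no interval was given.

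Groups came from the sample labels. Ratios were log2 of averages with a pseudocount of 1. Genes with a symbol and a largest average of at least 10 were kept, and 2-fold was the threshold. Levels per kb used the union of GENCODE M21 exons (GRCm38, the same build as mm10) in place of RefSeq transcript lengths. Named were the 9 genes, pathway genes past 2-fold with a higher average of at least 100 (at most 6 per list and comparison), the 3 genes nearest to each of the 9 past 2-fold, and Id2 and Id3. Homer1, Pik3r2, marker genes and values given beside a named gene fall outside this rule and were chosen after their values were seen. Some genes that the rule gives are not reported here. The 9 genes and the lists were chosen with earlier results of these data known. Ratios and calls were tested on simulated data as a check of the code. The simulation held only genes with at least 100 normalized counts in control and changes well past 2-fold, with no spread between samples beyond counting noise. It does not cover ratios near 2-fold or genes as low in control as Homer2. Python 3.11.15, numpy 2.4.6 and pandas 2.3.3 were used.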

Additional observations from a re-analysis of the deposited data

How the results depend on the processing

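The averages were also rescaled to the same sum or by the median ratio to control, with a pseudocount of 0 or 10, with no filter or one at 100, and with a fold threshold of 1.5 or 3. Of 180 ratios of the 9 genes under the first 4 of these settings, 167 moved by less than 0.2 without crossing 2-fold, none of the calls past 2-fold changed direction, and 13 moved. Of these, 9 are the lymphoma ratios with averages of the same sum, which moved the median log2 ratio of all genes in the lymphomas from 0.03 to -0.17 and turned the uncalled Pik3cg ratio from 0.09 to -0.11. The others are those of Homer2 with a pseudocount of 10 and of Pik3cd with median scaling, given above. The count of the 9 past 2-fold was 5 in Id2-/-Id3-/- CD4SP cells, 5 in lymphomas and 2 in TFH cells, and at a 3-fold threshold 3, 3 and 0. All genes past the fold numbered 3683, 5386, 1509, 3267 and 3859 in Id2-/-Id3-/- CD4SP cells, lymphomas, the libraries labelled Id3-/-, TFH cells and lymphomas over Id2-/-Id3-/- CD4SP cells. In that order they numbered 7155, 9588, 4303, 6240 and 9216 with no filter, 2012, 2884, 616, 1755 and 1596 with a filter at 100, 6484, 8332, 3058, 5538 and 6431 at 1.5-fold, and 1862, 3205, 671, 1825 and 2316 at 3-fold. With a pseudocount of 10 the third was 683 and the fifth 2535. With no filter the balance moved towards lower genes, from 2781 higher and 2605 lower to 3313 and 6275 in the lymphomas, from 851 and 658 to 1255 and 3048 in the libraries labelled Id3-/-, and from 1802 and 1465 to 2662 and 3578 in TFH cells, and lymphomas over Id2-/-Id3-/- CD4SP cells went from 1681 and 2178 to 2253 and 6963. With the same sum the lymphoma counts became 2317 and 3183. The totals move with the settings by construction, since they take in more or fewer genes or a wider or narrower fold. No paired analysis was possible because no values per sample were available, and no sample could be left out in turn. Depth is unknown, so the low averages of Homer2 in control and TFH cells have no stated precision.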
